A study of Mus musculus with 9 samples.

Results

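Nuclear receptors are transcription factors, most of which are switched by small lipid-soluble ligands, and they were described here as a family in whole mouse liver. The members were set by symbol alone, as the nuclear receptors other than Nr1d1 and Nr1d2. Of 44 listed symbols, 40 had a transcript cluster, the unit of the array that stands for 1 gene, among 19505 distinct symbols in the series; Ppard, Nr1h2, Nr2e3 and Esrra were not analysed here. Where a symbol had several clusters, as Rora and Rorb did, the one with the highest mean over the 9 arrays was used. RNA from whole liver of male mice was hybridised to Clariom S mouse arrays, in 3 groups of 3 arrays. The wild-type vehicle group was C57BL/6JHamSlc-+/+. The ob/ob mice given vehicle were C57BL/6JHamSlc-ob/ob, a strain that is obese because it makes no functional leptin. The ob/ob extract group was the same strain given VE, an extract of Vigna umbellata (rice bean), by gavage, 100 mg for each kg of body weight. All 3 groups ate standard chow, were 6 weeks old when obtained and were kept on the study for 42 days after acclimatisation. Wild-type mice given the extract were not analysed here. Leptin is missing from birth in every ob/ob cell, so the ob/ob difference is that of a whole-body mutant and not of its liver alone. Each array was taken to be 1 mouse; where that is not so, the p-values measure a spread that is partly technical.

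As background, a nuclear receptor binds DNA alone, as a pair with itself, or as a pair with a retinoid X receptor, and the core letters it reads are most often AGGTCA or a close relative. Without ligand many members recruit corepressors, and with ligand they exchange these for coactivators. The liver is known for receptors that sense fatty acids (PPARs), oxysterols (LXR), bile acids (FXR), drugs and steroids (CAR and PXR), glucocorticoids, thyroid hormone and vitamin A, beside receptors such as HNF4 alpha that keep hepatocyte genes on. Their activity follows ligand and partners, so transcript level is only a part of it.

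Values are the deposited log2 signals, on which a difference of 1 is a 2-fold change, and each group mean is given with its SD over 3 arrays. Group differences and their standard errors (SE) come from limma fitted over all 22206 clusters, with Benjamini-Hochberg adjusted p-values over that whole table, and a gene was called where the adjusted p was under 0.05. The study's own description instead asks for an unadjusted p under 0.05 and a linear fold above 1.1, here called the study's criterion. In the counts over gene lists below, rose and fell mean called higher and called lower. Over all clusters those shares were 2.28% and 0.68% in ob/ob vehicle against wild type, and 0.977% and 0.315% in ob/ob extract against wild type. With 1 array left out, the share called in either direction ran from 0.662% (without wild-type 2) to 7.56% (without ob/ob vehicle 3) in the first comparison. In ob/ob extract against wild type it ran from 0.347% (without extract 2) to 2.69% (without ob/ob vehicle 3). Counts over lists with 1 array left out are to be read beside these shares. Array medians ran from 5.07 to 5.36. The ob/ob vehicle array 3 and the wild-type vehicle array 3 stood apart: the first correlated with its group at 0.948 to 0.952 and the second at 0.955, while the other within-group pairs reached 0.98 to 0.99, and their interquartile ranges were 3.26 and 3.01 against 3.36 to 3.85 on the other arrays. The main results are therefore given with and without both, or without the one they rest on. The 8 measured hepatocyte markers of 10 listed were above background on all 9 arrays, with mean log2 signals of 19.15 to 19.30 in the wild-type group, 18.41 to 18.99 in the ob/ob vehicle group and 18.57 to 19.03 in the extract group; the lowest was ob/ob vehicle 3. The leptin transcript Lep lay at background on every array (2.58 to 3.67), so it checks no genotype label.

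The highest mean array signals of the family were those of Nr1i3, Ppara, Hnf4a, Nr1h4 and Nr5a2. Background was read from 1091 olfactory receptor clusters, which liver should not express: the upper end of their middle 95% was 5.33 to 5.74 on 7 arrays, 6.44 on ob/ob vehicle 3 and 6.62 on wild-type vehicle 3. By that measure 16 of 40 members (40%) lay above background on all 9 arrays, beside 27% of all clusters (6000), 13 did so on some arrays and 11 on none. Signals of different genes also depend on their probes, so the order is one of array signals and not of transcript numbers.

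Nr1i3, which encodes the drug sensor CAR, had the highest signal (mean 13.21 over 9 arrays, range 11.16 to 14.09). Close together after it came Ppara (11.42), Hnf4a (11.33), Nr1h4, which encodes the bile acid receptor FXR (11.32), and Nr5a2, which encodes LRH-1, an activator of bile acid synthesis genes (11.12). The means of these receptors differ by less than their own spread, since Ppara alone ran from 10.15 to 12.65. A further group lay between 9.27 and 9.74: Nr1h3, which encodes LXR alpha, Nr2f2, which encodes COUP-TFII, Rora, Thrb, Rxra and Nr1i2, which encodes PXR. Below them came Pparg (8.70), Nr0b2 (8.18), Nr2c1 (8.17), Nr3c2 (7.98), Nr3c1 (7.64), Thra (7.52), Rara (7.47) and Nr2c2 (6.93). The 11 members that stayed within the background range on all arrays were Nr2f1, Nr4a1, Nr5a1, Pgr, Hnf4g, Nr0b1, Nr4a3, Esr2, Nr2e1, Rorb and Esrrb. Several of them are best known from other organs, such as the progesterone receptor (Pgr) and the adrenal and gonadal factor SF-1 (Nr5a1). Others of that kind are the retinal and neural receptors Rorb and Nr2e1, and the stem cell factor Esrrb. A change in any of the 11 cannot be read.

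**Figure D1:**
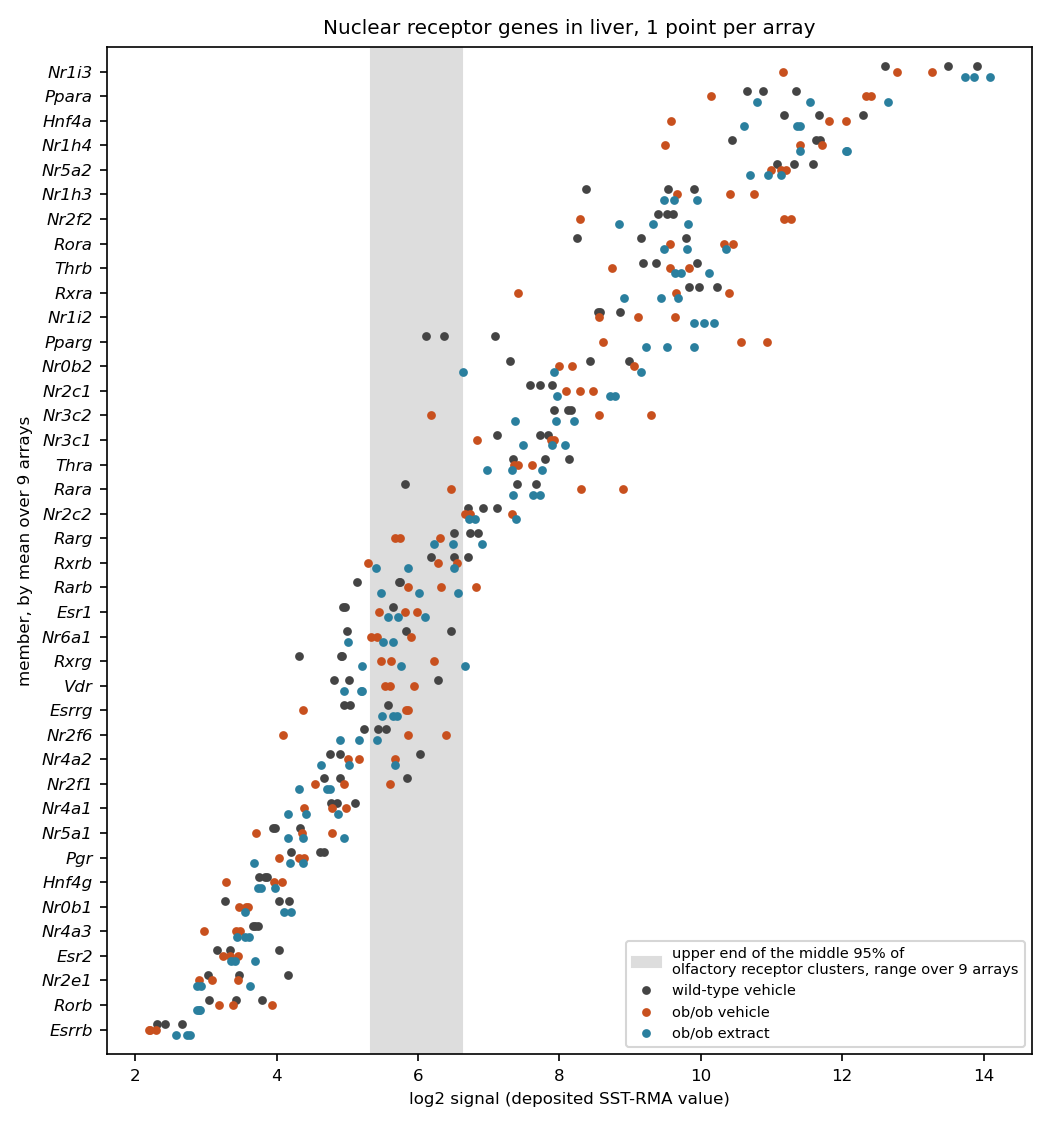
Deposited log2 signal of the 40 nuclear receptors, ordered by their mean over 9 arrays; points are single arrays coloured by group, and the grey band is the span over arrays of the upper end of the olfactory receptor range. Nr1i3 leads with a mean of 13.21, 16 members lie above background on all 9 arrays and 11 on none.

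Between ob/ob vehicle and wild-type vehicle, 1 of 40 receptors passed the adjusted threshold. Pparg was called higher, as were 2.28% of all clusters, and no member was called lower, beside 0.68% of all clusters. By the study's criterion 5 members were higher (Pparg, Rxrg, Rora, Nr1h3 and Rarb; 10.3% of all clusters) and 1 was lower (Rarg; 6.72% of all clusters), so the members' total of 6, or 15%, is near the share in the table. The groups did not overlap in 7 members (17.5%), beside 19.5% of all clusters. These members include Nr4a3 and Esrrb, which lay at background on all arrays. The median change of the 40 members was -0.03, beside -0.06 over all clusters, and the median size of change was 0.31 beside 0.33.

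Between ob/ob extract and ob/ob vehicle no receptor was called, as was no cluster of the table (0%); the smallest adjusted p was 0.709 among the members and 0.593 in the table. At an unadjusted limma p under 0.05 there were 3 members and 1433 clusters, and all of them also met the fold limit of the study's criterion. These members, Nr1i2, Nr1i3 and Rarg, were all higher with the extract, beside 3.56% of all clusters higher and 2.9% lower. The groups did not overlap in 5 members (12.5%), among them Rorb and Esrrb at background, beside 13.6% of all clusters. The median change was -0.02, beside -0.01 over all clusters.

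Between ob/ob extract and wild-type vehicle, 2 receptors were called higher, Pparg and Nr1i2, beside 0.977% of all clusters, and none was called lower, beside 0.315%. The study's criterion took 4 members as higher (Pparg, Nr1i2, Nr2c1 and Rxrg; 8.21% of all clusters) and 0 as lower (5.82%). The groups did not overlap in 7 members (17.5%), among them Nr4a3 and Rorb at background, beside 21.7% of all clusters. Each pair of these 3 comparisons shares a group of arrays, so their values stand side by side and are not independent.

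**Figure D2:**
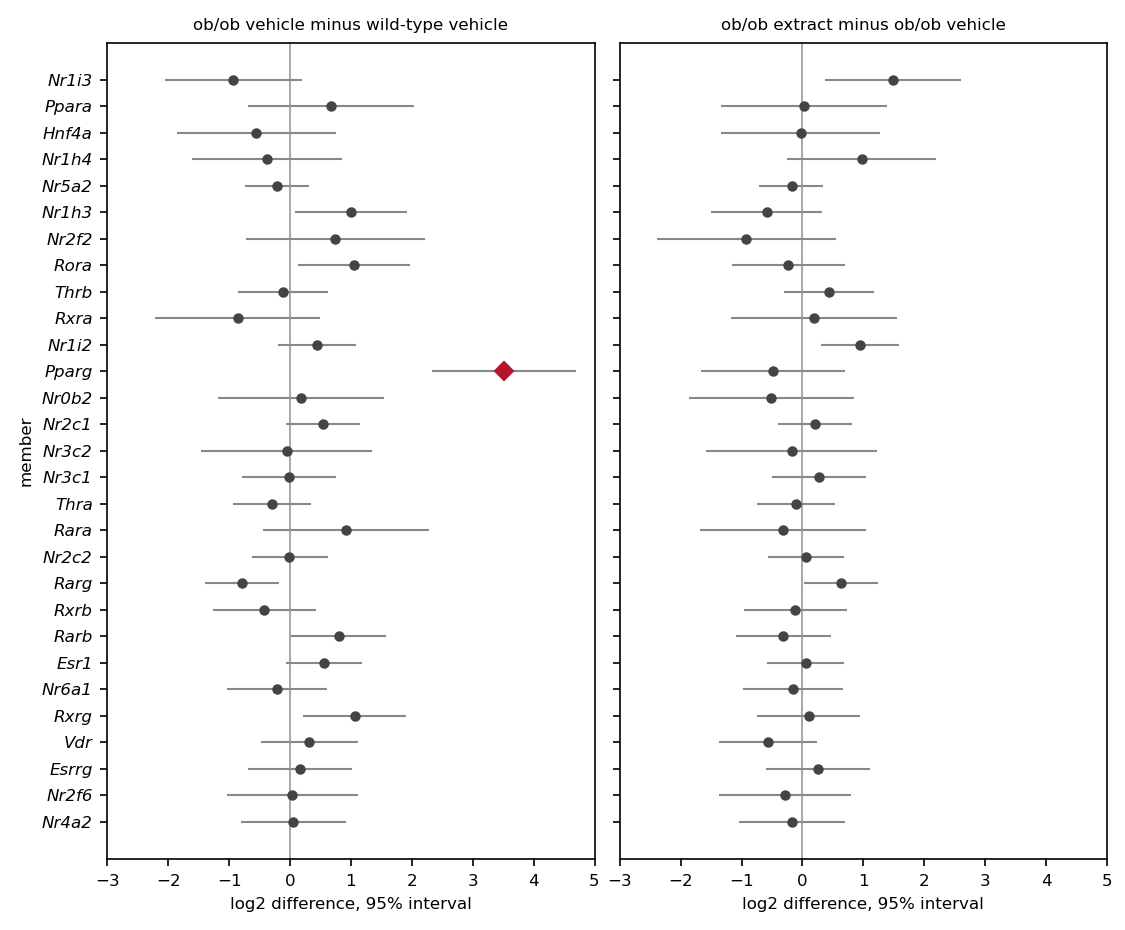
Log2 difference (horizontal axis) with its 95% interval from the limma fit for the 29 receptors above background on at least 1 array, between ob/ob vehicle and wild type (left) and between ob/ob extract and ob/ob vehicle (right); the red diamond marks a call at an adjusted p under 0.05. Pparg, at 3.51, is the only diamond on the left, and the right panel holds none.

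Pparg encodes PPAR gamma, the fatty acid sensor that drives lipid storage and is the main regulator of fat cell formation; it is known to be scarce in normal liver. Its log2 signals were 6.37, 7.09 and 6.11 in the wild-type group, 10.93, 10.57 and 8.61 in the ob/ob vehicle group, and 9.52, 9.90 and 9.23 in the extract group. Every ob/ob array lay above every wild-type array, and the extract arrays lay between the lowest and the highest ob/ob vehicle array; wild-type 3 lay within the background range of its own array. The mean rose from 6.52 ± 0.51 to 10.04 ± 1.25 in ob/ob vehicle, a change of 3.51 (SE 0.54, 95% interval 2.33 to 4.70, 11.4-fold, adjusted p = 0.00922). It stayed called with any 1 array left out, with changes from 3.07 to 4.23 and adjusted p-values up to 0.0458, and it was 3.51 with an adjusted p of 0.00389 with the replicate number as a block. In whole liver, more cells that express a gene and more RNA per cell cannot be told apart.

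In ob/ob extract Pparg was higher than in wild type by 3.03 (SE 0.54, 8.15-fold, adjusted p = 0.0254). That call was lost when any 1 of the 3 wild-type or 3 extract arrays was left out (changes 2.82 to 3.31, adjusted p up to 0.147), while without both arrays that stand apart it was 2.82 with an adjusted p of 7.25e-04. Against ob/ob vehicle the extract group differed by -0.49 (SE 0.54, 95% interval -1.67 to 0.70, adjusted p = 0.896). Of 6 listed adipocyte markers 5 were measured, and Adipoq, Lep, Retn and Plin1 lay at background on all 9 arrays, Adipoq at 2.90 to 4.33; only Car3, which liver also expresses, was above it. The mean log2 signal of those 5 markers was 6.66 to 7.0 in the wild-type group, 6.45 to 6.70 in the ob/ob vehicle group and 6.29 to 6.90 in the extract group.

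The windows around the start sites that RefSeq gives for Pparg and Nr1i2, the receptors called here, are shown because they are the regulatory sequence of these genes that a reader would look at first. RefSeq (GRCm38.p6) lists 3 start sites for Pparg, on the plus strand at chr6:115360894-115361193, chr6:115362099-115362398 and chr6:115421816-115422115, and 1 for Nr1i2, on the minus strand at chr16:38294775-38295074. Each window holds 250 bases before the start and 50 after it, 5′ to 3′, and capitals mark AGGTCA or its reverse complement TGACCT, searched on both strands:
Pparg start 1: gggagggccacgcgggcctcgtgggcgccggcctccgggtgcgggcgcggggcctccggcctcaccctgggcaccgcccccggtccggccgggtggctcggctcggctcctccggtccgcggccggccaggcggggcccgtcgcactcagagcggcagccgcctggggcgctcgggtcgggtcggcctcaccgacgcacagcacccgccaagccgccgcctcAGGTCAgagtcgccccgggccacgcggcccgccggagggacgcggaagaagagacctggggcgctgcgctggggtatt
Pparg start 2: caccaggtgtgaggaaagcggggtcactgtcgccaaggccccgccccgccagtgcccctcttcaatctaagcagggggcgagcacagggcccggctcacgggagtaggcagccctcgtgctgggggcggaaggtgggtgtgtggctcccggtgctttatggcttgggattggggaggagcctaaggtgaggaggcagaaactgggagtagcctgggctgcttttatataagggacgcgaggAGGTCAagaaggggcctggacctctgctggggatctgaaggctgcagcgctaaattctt
Pparg start 3: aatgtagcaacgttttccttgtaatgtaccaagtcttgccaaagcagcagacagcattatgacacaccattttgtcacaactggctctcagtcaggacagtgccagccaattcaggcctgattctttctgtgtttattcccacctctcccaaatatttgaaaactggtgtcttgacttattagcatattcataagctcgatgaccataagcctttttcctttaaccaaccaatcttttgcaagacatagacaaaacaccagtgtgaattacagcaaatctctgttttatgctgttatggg
Nr1i2 start: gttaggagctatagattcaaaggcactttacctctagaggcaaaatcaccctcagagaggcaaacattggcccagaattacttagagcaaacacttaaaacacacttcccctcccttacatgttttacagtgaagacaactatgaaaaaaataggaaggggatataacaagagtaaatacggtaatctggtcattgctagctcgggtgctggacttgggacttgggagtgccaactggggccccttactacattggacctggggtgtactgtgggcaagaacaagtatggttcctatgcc

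The letters AGGTCA begin 28 bases before the first Pparg start and 9 bases before the second, and were found neither in Pparg window 3 nor in the Nr1i2 window. Of all 32851 RefSeq promoter windows 5340 (16.3%) hold these letters, and of the 61 windows of the 40 receptors 11 (18%) do. A match describes the letters only. The array has 1 cluster for Pparg, so which start site the higher signal comes from cannot be read.

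Of 16 measured genes of 18 listed that PPAR gamma is known to drive in fatty liver and fat cells, 8 rose in ob/ob vehicle against wild type and 0 fell, with a median change of 1.55 beside -0.06 over all clusters; with 1 array left out the count ran from 5 (without ob/ob vehicle 1, ob/ob vehicle 2 or wild-type 2) to 9 (without ob/ob vehicle 3). Gpd1, which makes the glycerol backbone of triglyceride, rose by 2.81 (SE 0.40, adjusted p = 0.00601). Cidea, a lipid droplet protein typical of brown fat, rose from 4.77 ± 0.38, at background, to 10.01 ± 1.05 (adjusted p = 0.00306), and the fatty acid transporter Cd36 and the acyltransferase Mogat1 rose by 6.67 and 3.17. Against ob/ob vehicle the extract group had 0 of 16 called and a median of -0.07. Its 2 genes with the smallest p were G0s2, an inhibitor of lipolysis, at 2.17 (limma unadjusted p = 0.0152, adjusted p = 0.741), and Agpat2, an acyltransferase of triglyceride synthesis, at -1.08 (unadjusted p = 0.0353, adjusted p = 0.765).

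Ppara encodes PPAR alpha, which switches on fatty acid oxidation in fasting. Its own signals were 10.65, 10.88 and 11.35 in the wild-type group, 12.41, 12.34 and 10.15 in the ob/ob vehicle group, and 10.79, 12.65 and 11.55 in the extract group. The groups overlapped, with ob/ob vehicle 3 the lowest of all 9 arrays and the other ob/ob vehicle arrays above all of wild type. The change in ob/ob vehicle was 0.67 (95% interval -0.69 to 2.04, adjusted p = 0.642), and 1.61 without both arrays that stand apart (adjusted p = 0.0608). Of its known targets 9 of 27 measured genes were called higher in ob/ob vehicle and 0 lower, with a median of 1.26. By the study's criterion 16 were higher and 1 was lower. With 1 array left out the count called ran from 4 (without ob/ob vehicle 1, ob/ob vehicle 2 or wild-type 2) to 15 (without ob/ob vehicle 3). Acaa1b, a peroxisomal thiolase, rose from 10.05 ± 0.40 to 12.27 ± 0.43 (2.22, SE 0.32, adjusted p = 0.00647), and Slc25a20, the mitochondrial carnitine carrier, rose by 2.35 (adjusted p = 0.00525). Vnn1 and Acadm, the pantetheinase and the medium-chain acyl-CoA dehydrogenase, rose by 4.98 and 2.32. With the extract 0 of 27 were called against ob/ob vehicle (median 0.05), and 8 of 27 were called higher than in wild type (median 1.38), a count that ran from 1 (without wild-type 2 or extract 2) to 12 (without ob/ob vehicle 3).

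**Figure D3:**
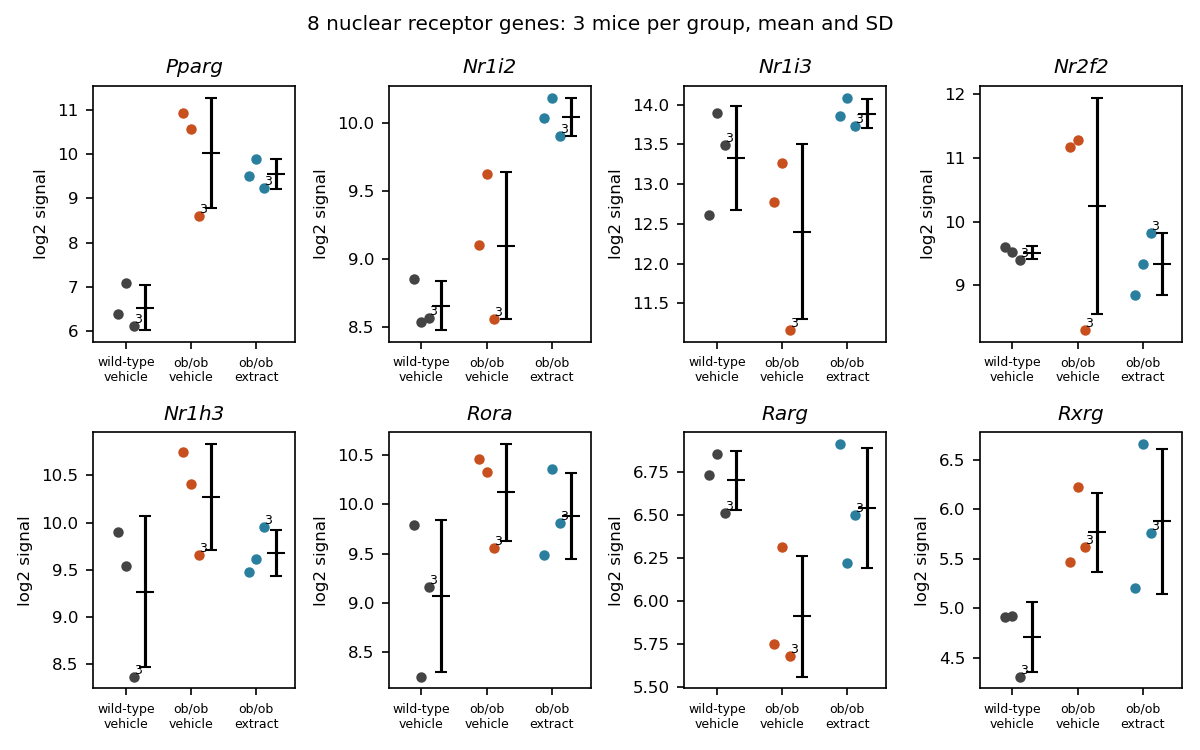
Log2 signal (vertical axis, scaled for each panel) of 8 receptors in wild-type vehicle, ob/ob vehicle and ob/ob extract; points are arrays, the digit 3 marks array 3 of each group, and bars give the mean and SD over 3 arrays. The wild-type arrays of Pparg (6.11 to 7.09) lie below all ob/ob arrays (8.61 to 10.93), Nr1i2 is highest in the extract group (9.91 to 10.19), and array 3 of ob/ob vehicle is the lowest of the 9 arrays for Nr2f2 (8.29) and Nr1i3 (11.16).

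Nr1h3 encodes LXR alpha, the oxysterol receptor that turns on cholesterol export and fatty acid synthesis. Its signals were 9.90, 9.54 and 8.37 in the wild-type group, 10.75, 10.41 and 9.66 in the ob/ob vehicle group, and 9.48, 9.62 and 9.95 in the extract group. The ob/ob vehicle arrays were high but overlapped wild-type 1, and the extract arrays lay within the range of the other groups. The change in ob/ob vehicle met the study's criterion, at 1.00 (SE 0.41, unadjusted p = 0.0341), but was not called by limma (adjusted p = 0.247). Macrophages also express this receptor; the 12 measured Kupffer cell and macrophage markers of 13 listed had mean log2 signals of 6.38 to 7.06 in the wild-type group, 7.08 to 7.11 in the ob/ob vehicle group and 5.99 to 6.83 in the extract group, and their part in the Nr1h3 values was not tested. Of 16 measured LXR targets 1 rose (Smpdl3a, a phosphodiesterase, by 1.44) and 1 fell (Mlxipl, the sugar-sensing factor ChREBP, by 3.35) in ob/ob vehicle, with a median of 0.05. The list includes Apoe and Scd1, in which a change cannot be read. Apoe had the highest signal of any cluster on every array. Without both arrays that stand apart, Scd1 gave the same differences as Apoe in ob/ob vehicle against wild type and in ob/ob extract against ob/ob vehicle. The Smpdl3a call was lost when any array other than ob/ob vehicle 3 was left out (adjusted p up to 0.151), and the Mlxipl call without ob/ob vehicle 1, wild-type 2, wild-type 3 or extract 2 (adjusted p up to 0.117). Over the list the count called ran from 0 without 1 of those 4 arrays to 5 without ob/ob vehicle 3. Fasn, the fatty acid synthase, differed by 3.04 (adjusted p = 0.134).

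Nr1h4 encodes FXR, the bile acid receptor, and Nr0b2 encodes SHP, a receptor without a DNA-binding domain that FXR induces to shut down bile acid synthesis. Nr1h4 signals were 11.63, 11.69 and 10.44 in the wild-type group, 11.41, 11.72 and 9.49 in the ob/ob vehicle group, and 11.41, 12.05 and 12.07 in the extract group. Both arrays numbered 3 of the vehicle groups were low and the groups overlapped. The extract group differed from ob/ob vehicle by 0.97 (95% interval -0.26 to 2.20, adjusted p = 0.823), and by 0.28 without both arrays that stand apart. Nr0b2 ran from 6.64 on extract 2 to 9.15 on extract 1, so that the widest spread lay within 1 group, and it differed by 0.18 in ob/ob vehicle against wild type (95% interval -1.18 to 1.54). Nr5a2, the partner that SHP represses, was the steadiest of the bright receptors, with all 9 arrays between 10.70 and 11.58.

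Among 23 measured genes that FXR and SHP control, 2 rose and 2 fell in ob/ob vehicle (median -0.04); with 1 array left out the count called ran from 1 (without ob/ob vehicle 1, ob/ob vehicle 2 or wild-type 2) to 5 (without ob/ob vehicle 3). Cyp7b1, an oxysterol hydroxylase of the alternative bile acid route, fell from 14.06 ± 0.62 to 7.59 ± 0.52 (-6.47, SE 0.39, adjusted p = 2.39e-05), and Abcb4, the phospholipid pump of bile, rose by 1.46 (adjusted p = 0.0109, up to 0.0604 without 1 of ob/ob vehicle 1, ob/ob vehicle 2 or wild-type 2). The extract group had 0 of 23 called against ob/ob vehicle (median 0.16), and against wild type 2 were called, Abcb4, which rose by 1.77, and Cyp7b1, which fell by 5.91, beside 5 without ob/ob vehicle 3.

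The xenobiotic sensors had their highest group means with the extract. Nr1i2 encodes PXR, which binds a wide range of drugs, plant compounds and bile acids and induces the genes that clear them. Its signals were 8.86, 8.54 and 8.57 in the wild-type group, 9.11, 9.63 and 8.56 in the ob/ob vehicle group, and 10.04, 10.19 and 9.91 in the extract group. Each extract array lay above each array of the other groups, which overlapped one another.

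Nr1i2 rose from 8.66 ± 0.18 in wild type to 10.05 ± 0.14 in ob/ob extract, by 1.39 (SE 0.29, 95% interval 0.75 to 2.03, 2.62-fold, adjusted p = 0.0495). This call sat at the threshold: it was lost when any array other than ob/ob vehicle 2 or ob/ob vehicle 3 was left out (changes 1.32 to 1.49, adjusted p up to 0.222) and under 5 other settings, with an adjusted p of 0.057 with the replicate number as a block. Against ob/ob vehicle the extract group differed by 0.95 (SE 0.29, 95% interval 0.31 to 1.59, 1.93-fold, unadjusted p = 0.00799), with an adjusted p of 0.709. Without both arrays that stand apart that difference was 0.68 (adjusted p = 0.241).

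Nr1i3 encodes CAR, which responds to phenobarbital-like compounds and shares many target genes with PXR. Its signals were 12.61, 13.90 and 13.49 in the wild-type group, 12.78, 13.27 and 11.16 in the ob/ob vehicle group, and 13.86, 14.09 and 13.73 in the extract group. The extract arrays lay above all ob/ob vehicle arrays but overlapped wild type, and ob/ob vehicle 3 was the lowest array by over 1 log2 unit. The extract group differed from ob/ob vehicle by 1.49 (SE 0.51, 95% interval 0.37 to 2.61, 2.81-fold, unadjusted p = 0.0141, adjusted p = 0.741). Without both arrays that stand apart the difference was 0.87 (adjusted p = 0.274), so its size rested in part on ob/ob vehicle 3. In ob/ob vehicle against wild type Nr1i3 differed by -0.93 (95% interval -2.05 to 0.19).

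Of 29 measured targets of CAR and PXR, 11 rose in ob/ob vehicle against wild type and 1 fell, with a median of 0.90, although neither receptor was called there; with 1 array left out the count called ran from 7 (without wild-type 2) to 14 (without ob/ob vehicle 3). Gsta2, a glutathione transferase, rose from 12.23 ± 0.29 to 16.15 ± 0.70 (3.92, SE 0.43, adjusted p = 0.00196), and Aldh1a1, which oxidises retinal, rose by 2.02 (adjusted p = 0.00306), to signals of 19.18 to 19.46 that lie near the top of the array scale. Cyp2b9 rose by 11.81 and Sult1e1, the estrogen sulfotransferase, by 10.06; both are also known as genes with higher levels in female than in male liver, and both lay near background in wild type (5.12 ± 0.89 and 3.56 ± 0.18), so that these sizes depend on where the background lies. The gene that fell was Cyp1a2, an enzyme that the dioxin receptor also controls, by 2.79, a call lost without any 1 array other than extract 2 (adjusted p up to 0.169).

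With the extract, 0 of 29 targets were called against ob/ob vehicle and 0 met the study's criterion, with a median of 0.27. Without both arrays that stand apart the median was -0.02, and 1 target met the criterion as higher and 3 as lower, beside 15.2% of all clusters in either direction. In that setting 1 target was called, beside 1.62% of all clusters. It was Abcc3, a transporter of bile acid and drug conjugates named after its values were seen. Abcc3 was at -1.98 (SE 0.27, adjusted p = 0.00895) beside -1.08 over all 9 arrays (adjusted p = 0.82). Without ob/ob vehicle 3 alone Abcc3 was again the one target called (adjusted p = 0.0325). Over all 9 arrays the 2 with the smallest p were Cyp1a2, at 1.18 (unadjusted p = 0.091, adjusted p = 0.798), and Cyp2c55, at -1.09 (unadjusted p = 0.0988, adjusted p = 0.808). Against wild type 12 of 29 rose in the extract group and 0 fell (median 0.96), and with 1 array left out the count ran from 7 (without wild-type 2) to 13 (without ob/ob vehicle 3).

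The retinoic acid receptors moved in different directions in ob/ob vehicle, each below the adjusted threshold. Rarg encodes RAR gamma, best known from skin and cartilage. Its signals were 6.73, 6.85 and 6.51 in the wild-type group, 5.75, 6.31 and 5.68 in the ob/ob vehicle group, and 6.91, 6.22 and 6.50 in the extract group. All wild-type arrays lay above those of ob/ob vehicle, and the extract arrays overlapped both. Rarg lay close to the background, which it exceeded on 7 of 9 arrays, and not on array 3 of either vehicle group. The difference was -0.78 in ob/ob vehicle against wild type (SE 0.27, unadjusted p = 0.0164, adjusted p = 0.169). In ob/ob extract against ob/ob vehicle it was 0.63 (SE 0.27, unadjusted p = 0.0434, adjusted p = 0.767), and both values share the ob/ob vehicle arrays. Without both arrays that stand apart they were -0.76 and 0.51 (adjusted p = 0.176 and 0.442), and the extract difference no longer met the study's criterion.

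Rarb encodes RAR beta, itself a target of retinoic acid and a receptor of the vitamin A-storing stellate cells. Its signals were 5.74, 5.14 and 5.73 in the wild-type group, 6.82, 6.32 and 5.86 in the ob/ob vehicle group, and 6.01, 5.48 and 6.56 in the extract group. All ob/ob vehicle arrays lay above wild type by 0.80 on average (SE 0.35, unadjusted p = 0.0451, adjusted p = 0.28), close to the background, which Rarb exceeded on 6 of 9 arrays. Rara, which encodes the widely expressed RAR alpha, had means of 6.96 ± 1.00 in wild type and 7.89 ± 1.27 in ob/ob vehicle, with the low values on the array numbered 3 of each (5.82 and 6.46).

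The retinoid X receptors pair with PPAR, LXR, FXR, CAR, PXR, the retinoic acid receptors and the thyroid hormone receptors. Rxra encodes the main liver form, RXR alpha. Its signals were 9.83, 10.23 and 9.97 in the wild-type group, 9.65, 10.40 and 7.41 in the ob/ob vehicle group, and 8.91, 9.68 and 9.44 in the extract group. The extract arrays lay below all wild-type arrays, by -0.67 on average (95% interval -2.02 to 0.69, adjusted p = 0.666), and ob/ob vehicle 3 alone set the ob/ob vehicle mean low. Against wild type the ob/ob vehicle difference was -0.86 with that array and 0.02 without it.

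Rxrg encodes RXR gamma, the muscle and brain form. Its signals were 4.91, 4.92 and 4.31 in the wild-type group, 5.47, 6.23 and 5.62 in the ob/ob vehicle group, and 5.21, 6.66 and 5.76 in the extract group. Both ob/ob groups lay above wild type without overlap, by 1.06 (SE 0.38, unadjusted p = 0.0187, adjusted p = 0.181) and 1.16 (SE 0.38, unadjusted p = 0.0117, adjusted p = 0.203). No wild-type array was above background, and 4 of 9 arrays were in all. Rxrb, which encodes the widely expressed RXR beta, ran from 5.29 to 6.71 and was not called in any comparison.

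Of 24 measured genes of retinoid metabolism and retinoic acid response, 4 rose in ob/ob vehicle and 0 fell (median 0.08); the count ran from 1 without ob/ob vehicle 1, ob/ob vehicle 2 or wild-type 2 to 4 without ob/ob vehicle 3. Aldh1a1, given above, was the one with the smallest p. The list includes Ttr, in which a change cannot be read, since it lay at or near the highest signal of any cluster on every array. Tgm2, a transglutaminase induced by retinoic acid, had signals of 6.47, 6.65 and 5.46 in the wild-type group, 9.0, 8.10 and 8.04 in the ob/ob vehicle group, and 7.37, 6.94 and 6.40 in the extract group. All ob/ob vehicle arrays lay above both other groups, which overlapped. Tgm2 rose by 2.19 in ob/ob vehicle (SE 0.40, adjusted p = 0.0197, up to 0.0831 without 1 of ob/ob vehicle 1, ob/ob vehicle 2, wild-type 2 or wild-type 3). With the extract it differed from ob/ob vehicle by -1.48 (unadjusted p = 0.0039, adjusted p = 0.707), and by -1.65 without both arrays that stand apart (adjusted p = 0.0417).

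The steroid receptors themselves showed no difference that passed the test. Nr3c1 encodes the glucocorticoid receptor, the target of corticosterone, a hormone known to be raised in ob/ob mice. Its signals were 7.84, 7.73 and 7.12 in the wild-type group, 7.93, 7.88 and 6.84 in the ob/ob vehicle group, and 7.48, 7.90 and 8.08 in the extract group. The groups overlapped, with the low values on the arrays numbered 3 of the vehicle groups. For Nr3c1 the ob/ob vehicle difference was -0.01 (95% interval -0.78 to 0.76) and that of ob/ob extract against ob/ob vehicle 0.27 (95% interval -0.50 to 1.04). Nr3c2, which encodes the mineralocorticoid receptor, ran from 6.19 on ob/ob vehicle 3 to 9.30 on ob/ob vehicle 1, so the spread within that group exceeded all differences between groups. Esr1, which encodes estrogen receptor alpha, lay at 5.18 ± 0.40 in the wild-type group, 5.75 ± 0.27 in the ob/ob vehicle group and 5.80 ± 0.27 in the extract group, near the background, and was not called.

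Known glucocorticoid receptor targets were mixed in ob/ob vehicle: 4 of 26 rose and 2 fell, with a median of -0.69 over all 9 arrays and -0.23 without both that stand apart. The risen genes included the metallothioneins Mt1 (5.24, adjusted p = 0.00593) and Mt2 (7.03, adjusted p = 0.0127, up to 0.0663 without 1 of ob/ob vehicle 1 or wild-type 2), which metals and inflammation also induce, and the cell cycle inhibitor Cdkn1a (3.76, adjusted p = 0.00964, 0.0516 without wild-type 2). Lpin1, a phosphatidate phosphatase that also acts as a coregulator, fell by 3.25 (adjusted p = 0.0178, up to 0.0834 without 1 of ob/ob vehicle 2, wild-type 2 or wild-type 3). The other gene that fell was Tsc22d3, named here outside the naming rule. It was at -2.29 without both arrays that stand apart, where it was no longer called (adjusted p = 0.0591). With 1 array left out the count called ran from 1 without wild-type 2 to 6.

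With the extract 0 of 26 glucocorticoid targets were called against ob/ob vehicle, while 8 met the study's criterion as higher and 0 as lower, beside 3.56% and 2.9% of all clusters, with a median of 0.63. Fkbp5, the chaperone of the glucocorticoid receptor, had signals of 13.13, 13.41 and 10.44 in the wild-type group, 11.53, 10.90 and 11.28 in the ob/ob vehicle group, and 12.61, 14.44 and 13.74 in the extract group. All extract arrays lay above all ob/ob vehicle arrays, and wild type overlapped both. The difference was 2.36 (SE 0.71, unadjusted p = 0.00733, adjusted p = 0.707). Zbtb16, a zinc finger repressor, had signals of 9.87, 9.54 and 11.86 in the wild-type group, 8.50, 7.16 and 7.99 in the ob/ob vehicle group, and 10.32, 11.36 and 9.58 in the extract group. Its ob/ob vehicle arrays lay below both other groups, and the extract difference was 2.54 (SE 0.63, unadjusted p = 0.00231, adjusted p = 0.626).

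Without both arrays that stand apart the glucocorticoid list's median in that comparison was 0.06, with 5 genes higher and 1 lower by the study's criterion. Over all clusters 15.2% met that criterion in either direction and 1.62% were called. Fkbp5 (2.38, adjusted p = 0.0273), Zbtb16 (2.59, adjusted p = 0.0294) and Igfbp1 (2.18, adjusted p = 0.0488), an insulin-suppressed binding protein named after its values were seen, were then called. The list's median thus moved with both arrays, while the differences of these 3 genes lay between 2.18 and 2.76 with and without them. In ob/ob vehicle against wild type, leaving out both arrays gave 4 genes of the list called higher and 2 called lower, beside 7.86% of all clusters called. Fkbp5 was among those called lower there, at -2.05 (adjusted p = 0.0255), while Zbtb16 was not called, at -1.87 (adjusted p = 0.0571).

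Thrb and Thra encode the thyroid hormone receptors, of which the beta form is the main one in liver. Thrb had means of 9.50 ± 0.40 in the wild-type group, 9.39 ± 0.57 in the ob/ob vehicle group and 9.82 ± 0.26 in the extract group, and Thra 7.76 ± 0.40, 7.46 ± 0.13 and 7.35 ± 0.39. Neither was called, and the 95% interval of Thrb in ob/ob vehicle ran from -0.85 to 0.63. Of 17 measured thyroid hormone targets 0 were called in ob/ob vehicle (median 0.56), while 3 were without ob/ob vehicle 3; leaving out both arrays that stand apart also gave 3 calls, and a median of 0.29. Over all 9 arrays Me1, the malic enzyme that supplies NADPH, differed by 2.31 (adjusted p = 0.0535). Vdr, which encodes the vitamin D receptor and is known to be scarce in hepatocytes, lay between 4.81 and 6.28, near the background.

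Hnf4a encodes HNF4 alpha, without which hepatocytes lose their identity. Its signals were 11.67, 12.29 and 11.17 in the wild-type group, 12.06, 11.82 and 9.58 in the ob/ob vehicle group, and 10.61, 11.36 and 11.41 in the extract group. The groups overlapped and ob/ob vehicle 3 was again the lowest. In ob/ob vehicle Hnf4a differed by -0.56 (95% interval -1.86 to 0.75), and -0.04 without both arrays that stand apart. Of 25 measured targets 1 rose and 4 fell in ob/ob vehicle (median -0.04), and the count did not go below 5 with any 1 array left out. That median includes Alb, Apoa2 and Ttr. A change in them cannot be read, since they lay at or near the highest signal of any cluster on every array. Apoa4, a lipoprotein of chylomicrons, rose by 8.30 (adjusted p = 1.31e-04), and its ob/ob vehicle signals of 19.21 to 19.83 lay near the highest signal of any cluster on those arrays, so that this size depends on where the scale ends. Among the genes that fell, Serpina1e, an alpha-1-antitrypsin gene, F11, a clotting factor, and Apom, the carrier of sphingosine-1-phosphate, fell by 5.72, 2.85 and 3.94; Serpina1e too was near the top of the scale on 2 wild-type arrays (19.33 and 19.57). In the extract group the glycogen synthase Gys2 differed from ob/ob vehicle by 1.02 (unadjusted p = 0.00178, adjusted p = 0.593).

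Rora encodes ROR alpha, which drives clock and lipid genes at the sites that REV-ERB represses. Its signals were 9.79, 8.25 and 9.16 in the wild-type group, 10.46, 10.33 and 9.56 in the ob/ob vehicle group, and 9.48, 10.36 and 9.81 in the extract group. The ob/ob vehicle arrays were high but overlapped wild-type 1, for a difference of 1.05 (SE 0.42, unadjusted p = 0.0292, adjusted p = 0.229). A second Rora cluster of nearly the same brightness differed by 0.84 in that comparison (adjusted p = 0.414), and the dimmest, near background, by -0.25. Of 16 genes that respond to ROR and REV-ERB, 2 rose and 4 fell in ob/ob vehicle (median -0.27). Elovl3, a fatty acid elongase, fell by 5.68 (adjusted p = 0.00385) and Avpr1a, the vasopressin receptor, fell to background, from 6.29 ± 0.79 to 3.39 ± 0.46 (adjusted p = 0.00476). Cry1, a clock repressor, differed between ob/ob extract and ob/ob vehicle by 1.10 (SE 0.25, unadjusted p = 0.00126, adjusted p = 0.593), with no overlap of the groups. Cry1 was called without both arrays that stand apart, at 1.23 (adjusted p = 0.0431).

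Nr2c1 encodes TR2, a partner of TR4 (Nr2c2) that mostly represses. Its signals were 7.90, 7.73 and 7.59 in the wild-type group, 8.47, 8.29 and 8.09 in the ob/ob vehicle group, and 8.79, 8.71 and 7.97 in the extract group. Both ob/ob groups lay above wild type without overlap. The difference was 0.54 in ob/ob vehicle (SE 0.27, unadjusted p = 0.0735, adjusted p = 0.352) and 0.75 in ob/ob extract (SE 0.27, unadjusted p = 0.0199, adjusted p = 0.25). Nr2c2 stayed between 6.67 and 7.38 on all arrays.

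Nr2f2 encodes COUP-TFII, a repressor of many receptor sites that hepatocytes, endothelium and stromal cells express, and it is named here outside the naming rule because its call turns on 1 array. Its signals were 9.60, 9.52 and 9.40 in the wild-type group, 11.18, 11.28 and 8.29 in the ob/ob vehicle group, and 8.85, 9.33 and 9.82 in the extract group. Arrays 1 and 2 of ob/ob vehicle were the highest of all and array 3 was the lowest of all. Over all 9 arrays Nr2f2 differed by 0.74 in ob/ob vehicle against wild type (SE 0.66, adjusted p = 0.633) and by -0.92 in ob/ob extract against ob/ob vehicle (SE 0.66, adjusted p = 0.846). Without ob/ob vehicle 3 alone it was called in both, at 1.72 (adjusted p = 0.00812) and -1.90 (adjusted p = 0.0438). The 11 endothelial markers had mean log2 signals of 7.06 to 7.42 in wild type, 6.89 to 7.79 in ob/ob vehicle, with the lowest of the group on ob/ob vehicle 3, and 7.05 to 7.28 in ob/ob extract, and the 12 measured stellate cell and fibroblast markers 6.54 to 6.97, 6.77 to 7.30, with the lowest of the group again on ob/ob vehicle 3, and 6.82 to 7.08. Their part in the Nr2f2 values was not tested. Nr2f6, a related repressor near background, ran from 4.09 on ob/ob vehicle 3 to 6.39 on ob/ob vehicle 1.

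Nr4a1, Nr4a2 and Nr4a3 encode receptors induced within minutes by stress, glucagon and growth signals. Nr4a1 lay at 4.16 to 5.11 and Nr4a3 at 2.98 to 3.74, within the background range on all 9 arrays, and Nr4a2 at 4.63 to 6.03. Of 15 other immediate early genes 0 were called in ob/ob vehicle by limma, while 1 had an unadjusted p under 0.05 (Ier2, at -1.02, unadjusted p = 0.0409); 1 was called without ob/ob vehicle 3. With the extract 0 of 15 met either rule against ob/ob vehicle. Esrrg, which encodes the estrogen-related receptor gamma that drives mitochondrial genes, lay between 4.38 and 5.86, and Nr6a1, the germ cell nuclear factor, between 4.99 and 6.46; neither was called.

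Many receptors had their lowest value on array 3 of the ob/ob vehicle group, in a plain count that was not tested. Of 19 members above background on at least 8 arrays, 10 (52.6%) had their lowest value on ob/ob vehicle 3, beside 20.7% of the 7387 clusters of that kind, and 4 (21.1%) on wild-type 3, beside 34%. Without both arrays 2 receptors were called in ob/ob vehicle against wild type, Pparg (4.02, SE 0.33, adjusted p = 8.70e-05) and Nr2f2 (1.67, SE 0.32, adjusted p = 0.0103), beside 7.86% of all clusters. By the study's criterion 12 of 40 then differed, 11 higher and 1 lower, beside 22.7% of all clusters; leaving out both arrays thus raised the count in the table as well as among the receptors.

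In ob/ob extract against ob/ob vehicle, leaving out both arrays gave 1 call, Nr2f2 (-1.90, SE 0.30, adjusted p = 0.0144), beside 1.62% of all clusters. The study's criterion then took 9 of 40, beside 15.2% of all clusters: Nr1i2 and Nr1i3 as higher, and Rara (-1.03), Pparg (-1.20), Nr1h3 (-0.90), Hnf4a (-0.81), Nr2f2, Nr2f6 (-0.96) and Nr3c2 (-1.09) as lower. Over all 9 arrays the same 7 receptors differed by -0.92 to -0.03, none with an unadjusted p under 0.05. For the extract group against wild type the calls were Pparg and Nr1i2 (1.35, adjusted p = 0.0199) in both cases. Which set of values is nearer to the mice cannot be told apart with 3 arrays a group.

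**Figure D4:**
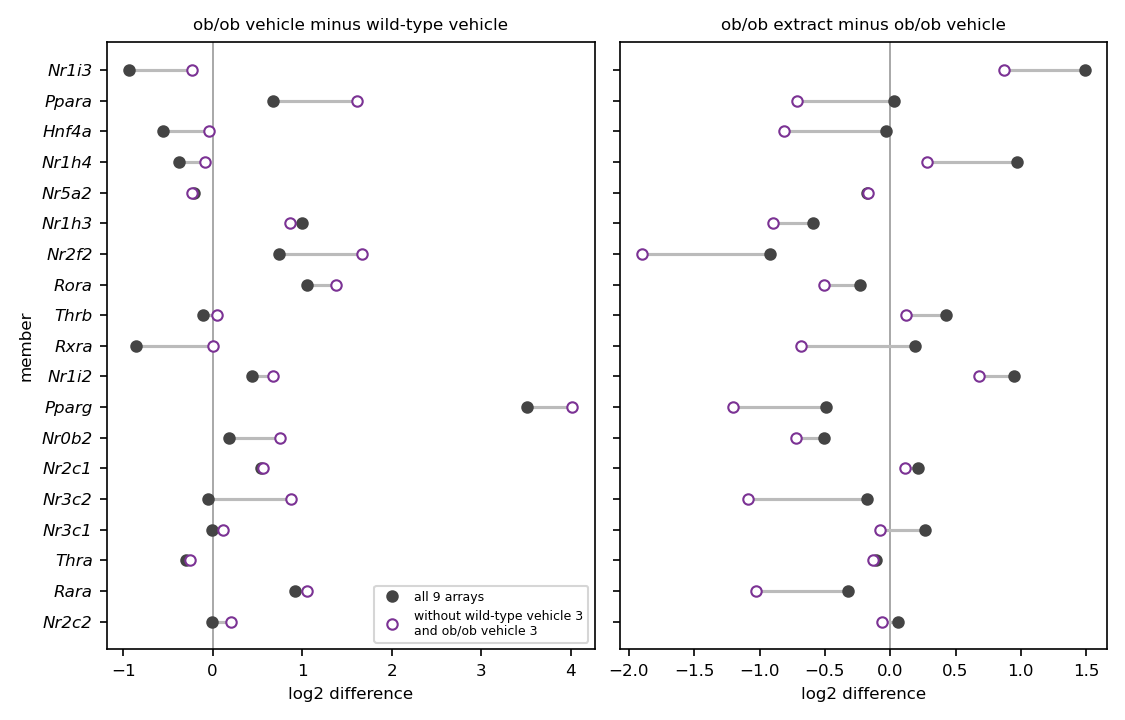
Log2 difference (horizontal axis) of the 19 receptors above background on at least 8 arrays, over all 9 arrays (filled points) and without ob/ob vehicle 3 and wild-type 3 (open points), for ob/ob vehicle minus wild type (left) and ob/ob extract minus ob/ob vehicle (right). Nr2f2 moves from 0.74 to 1.67 on the left and from -0.92 to -1.90 on the right, while Pparg stays high on the left, at 3.51 and 4.02.

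Few of the coregulators through which the receptors act passed the test. Of 22 coactivators 0 were called in ob/ob vehicle by limma, while 1 had an unadjusted p under 0.05, with a median of 0.11, or 0.56 without both arrays that stand apart. That one was Med24, a Mediator subunit, at 1.43 (unadjusted p = 0.0152, adjusted p = 0.163) and, with the extract, at -1.39 against ob/ob vehicle (unadjusted p = 0.0173, adjusted p = 0.741). Leaving out ob/ob vehicle 3 or wild-type 1 alone gave 1 called coactivator. Without both arrays that stand apart Med24 was called in both comparisons, at 1.76 (adjusted p = 0.0153) and -1.96 (adjusted p = 0.0208). Among 17 measured corepressors Lpin1, given above, was the only call in ob/ob vehicle (median -0.11), and Nrip1, a corepressor of fat and liver metabolism, differed by -1.27 in ob/ob vehicle (adjusted p = 0.118) and by 1.11 with the extract (adjusted p = 0.741). The corepressor count ran from 0 (without ob/ob vehicle 2, wild-type 2 or wild-type 3) to 2 (without wild-type 1).

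Enzymes that make or clear receptor ligands moved both ways: 3 of 26 rose and 4 fell in ob/ob vehicle (median -0.08), and the count ran from 3 (without ob/ob vehicle 1, wild-type 2 or extract 2) to 7. Hsd3b5, a steroid dehydrogenase known to be male-biased in liver, fell from 14.54 ± 0.65 to 4.68 ± 0.25, at background (adjusted p = 2.94e-07). Hsd11b1, which regenerates active glucocorticoid, differed by -0.60 in ob/ob vehicle and by 0.64 with the extract against ob/ob vehicle (adjusted p = 0.438 and 0.815). Of 18 measured estrogen receptor and ERR targets 2 rose and 2 fell in ob/ob vehicle (median 0.17). Lifr, the receptor of leukaemia inhibitory factor, fell by 3.66 (adjusted p = 0.00101). In ob/ob extract against ob/ob vehicle 0 genes of the 15 lists were called over all 9 arrays. Leaving out both arrays that stand apart gave 8 lists with calls, of 11 genes in all, beside 1.62% of all clusters. Cry1, Fkbp5, Zbtb16 and Igfbp1 were called higher, and Med24, Tgm2, Abcc3, Dhrs3, Bcl3, Sin3a and Sdha lower. Those not given above are named after their values were seen. Dhrs3, a retinal reductase, was then at -2.22 (adjusted p = 0.00625), the NF-kappa B cofactor Bcl3 at -1.76 (adjusted p = 0.00895), the corepressor scaffold Sin3a at -1.55 (adjusted p = 0.0234) and the succinate dehydrogenase subunit Sdha at -1.81 (adjusted p = 0.0311). Over all 9 arrays they differed by -1.33, -1.09, -0.78 and -1.08 (adjusted p = 0.781 to 0.845). In ob/ob vehicle against wild type the median of the estrogen receptor and ERR targets turned from 0.17 to -0.32 and that of the HNF4 alpha targets from -0.04 to 0.05 without both arrays, and that of the ROR and REV-ERB genes went from -0.27 to -0.03. Some genes stand in several lists, 31 in all, so the lists are not independent.

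**Figure D5:**
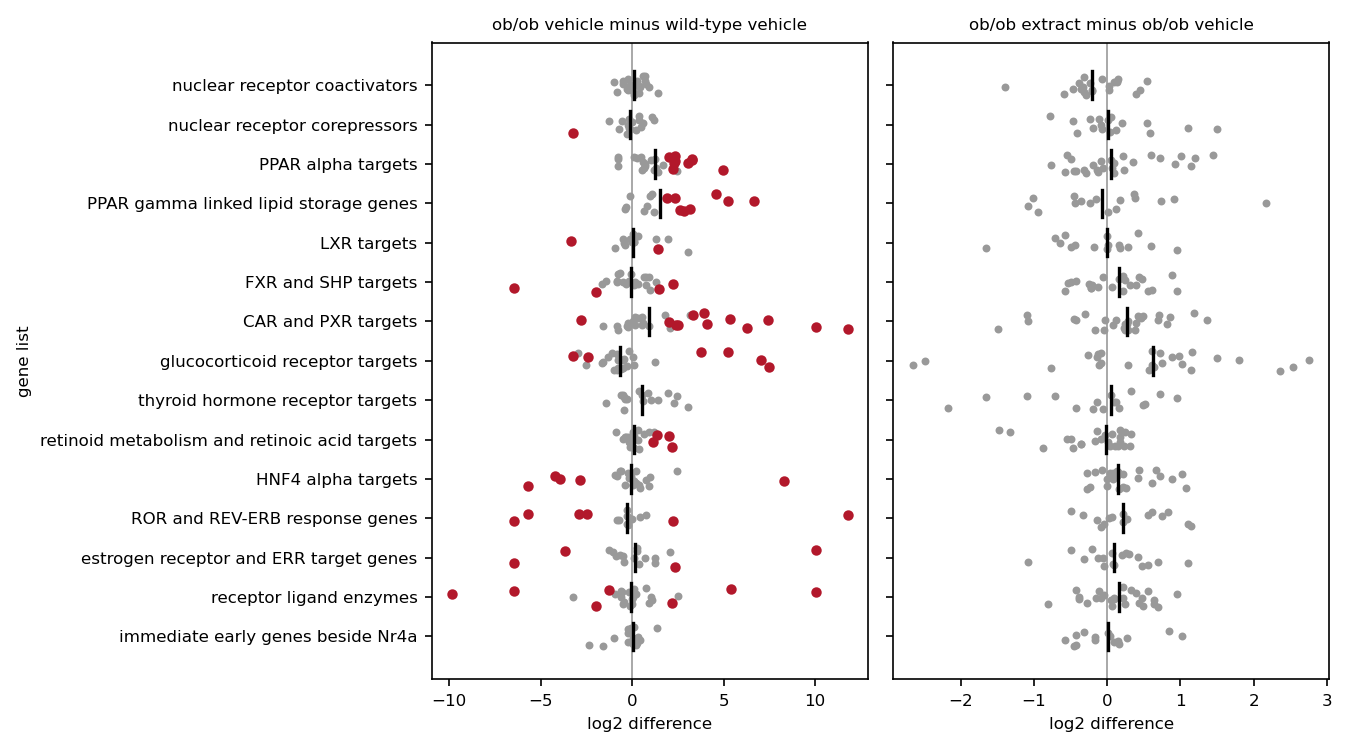
Log2 difference (horizontal axis, with a wider scale on the left) of each gene of the 15 lists between ob/ob vehicle and wild type (left) and between ob/ob extract and ob/ob vehicle (right); red points are calls at an adjusted p under 0.05 and the black bar is the list's median. PPAR gamma-linked genes (median 1.55), PPAR alpha targets (1.26) and CAR and PXR targets (0.90) have the highest medians on the left, and no gene is called on the right, where all 9 arrays are used.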

How the data were processed

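The authors deposited log2 signals for 22206 transcript clusters on 9 arrays; per the labels and the submitters' processing notes they came from Transcriptome Analysis Console 4.0.2 with SST-RMA, which stretches fold changes, so sizes depend on that step. The genome build of the array is not given in the sources used here. GEO's platform table gave 19572 clusters 1 symbol and 2634 none. The detection filter of the study's description was not applied; an olfactory receptor range stood in for background.

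A mean per group was fitted with limma 3.58.1 in R 4.3.3 over all 9 arrays (6 residual and 4.45 prior degrees of freedom, two-sided), after the analysis of variance with empirical Bayes correction that the labels name. The fit was tested on simulated data. The number of arrays, 3 per group, limits the precision. Members, the 15 gene lists (306 symbols, 276 measured) and the markers were chosen with earlier results of these data known. Receptors called in a comparison, or meeting the study's criterion without overlap of the groups, were given with 9 values; of each list up to 4 genes with the smallest p in ob/ob vehicle against wild type and 2 in ob/ob extract against ob/ob vehicle were named. Names outside this rule are said to be so, or come with a receptor's liver role.

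The labels number the replicates 1 to 3 in each group. Same-numbered arrays of ob/ob vehicle and wild type deviated together (correlations 0.256, 0.262 and 0.45), while those of ob/ob extract did not, with ob/ob vehicle (-0.13, 0.0157 and -0.106) or wild type (-0.208, -0.0412 and -0.143). The deviations are taken from each group's own mean, so the 3 correlations of a pair of groups are tied to one another. Array 3 also stood apart in both vehicle groups, so these values do not settle a pairing. Alternatives changed the normalization, the filter on dim clusters, array weights, the groups fitted, the replicate block, the empirical Bayes settings, the interquartile range as a covariate, and the arrays left out.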

Additional observations from a re-analysis of the deposited data

How the results depend on the processing

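Clusters called in ob/ob vehicle against wild type numbered 658, and 2137 with array weights, 207 with only those groups fitted, 1745 without both arrays that stand apart and 3771 by the study's criterion; with 1 array left out they ran from 147 to 1679. Receptors called there numbered 1, and 3 with array weights (Pparg, Rora and Nr2f2), 3 with the interquartile range as a covariate (Pparg higher, Nr1h4 and Hnf4a lower), 2 without both arrays, 6 by the study's criterion and 1 to 2 with 1 array left out. In ob/ob extract against ob/ob vehicle 0 clusters were called, and 106 with array weights, 360 without both arrays, 1 with the covariate, 1433 by the study's criterion and 0 to 51 with 1 array left out; for the receptors these were 0, and 1 without both arrays, 3 by the criterion and 0 to 1. In ob/ob extract against wild type 287 clusters were called, and 796 with array weights, 595 without both arrays, 3115 by the criterion and 77 to 598 with 1 array left out. The receptors there numbered 2, and 1 each with quantile normalization, median centring, the replicate block, trended and robust empirical Bayes and the covariate, where Nr1i2 was lost, 4 by the criterion and 0 to 2 with 1 array left out. The cause of these moves was not tested. With the replicate block 579, 0 and 283 clusters were called, and Nr1i2 in ob/ob extract against wild type (adjusted p = 0.057) was the only receptor call it changed. No called value changed sign. Of the 36 calls of named genes in ob/ob vehicle against wild type 23 held with any 1 array left out, and of the 24 in ob/ob extract against wild type 14 held and 10 were lost without an array. Of those named in the text Mlxipl, Smpdl3a, Abcb4, Tgm2 and Cyp1a2 were also lost under at least 1 other setting, with adjusted p-values up to 0.0925, 0.117, 0.0522, 0.0627 and 0.065. So were the calls of Agpat2 in ob/ob vehicle against wild type (up to 0.0548) and of Acadm in ob/ob extract against wild type (up to 0.0545). Dim receptors near the olfactory range have no readable order, and 3 arrays a group limit what can be called.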

Other observations

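The third Rora cluster, which lies near background and was not used for the receptor, had log2 signals of 4.79, 4.63 and 5.35 in wild type, 4.84, 4.69 and 4.48 in ob/ob vehicle, and 5.54, 6.04 and 5.82 in ob/ob extract. All extract arrays lay above all arrays of both other groups, and they were the only ones above the olfactory receptor range, as 3 of 9 arrays. It differed by 1.13 in ob/ob extract against ob/ob vehicle (SE 0.27, unadjusted p = 0.00158, adjusted p = 0.593) and was not called by limma, while the second cluster differed by 0.01 and the cluster used by -0.23 in the same comparison.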
